A study of Mus musculus with 8 samples.

Results

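Expression was followed for 10 genes grouped under centronuclear myopathy and repair of the muscle fibre membrane: *Mtm1*, *Mtmr2*, *Mtmr14*, *Bin1*, *Dnm2*, *Speg*, *Cav3*, *Dysf*, *Myof* and *Ano5*. Of these, *Mtmr2* is a relative of *Mtm1* that is best known for a demyelinating neuropathy. The 10 genes were picked by name, as the probe sets whose gene symbol equals one of these names, out of 22206 probe sets on the array. Each of the 10 was found with a single gene-level probe set that names no other gene. The rule that picked them uses no measured value, although earlier results of these data were known when the names were chosen. None of the 10 passed the adjusted test after MYTHO-KD, their mean signals in MYTHO-KD muscle were 0.776 to 1.35 times those of control muscle, and all 10 confidence intervals excluded a 2-fold difference.

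In centronuclear myopathy, fibre nuclei lie in the middle of the fibre and the triads, where T-tubules meet the sarcoplasmic reticulum, are malformed. The genes involved code for enzymes that remove a phosphate from the lipid PI3P, which marks endosomes and autophagosomes, and for proteins that bend or cut membranes. Membrane repair is a separate task: when the sarcolemma tears, calcium enters, and vesicles guided by dysferlin and its partners close the gap. Loss of dysferlin, of caveolin 3 or of anoctamin 5 causes muscle disease in people.

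RNA came from the gastrocnemius (GAS) of 4 C57/Bl6j mice, all male, whose age is labelled as 14 weeks. In each mouse, one GAS had received an AAV that expresses a hairpin RNA against *Mytho* from the U6 promoter (AAV sh-RNA MYTHO, the MYTHO group), and the opposite GAS an AAV with a scrambled hairpin under the same promoter (AAV sh-RNA scrmb, the scrmb group). Injection was at about 10 weeks of age and muscles were collected 3 weeks later, so every muscle had carried a virus and a hairpin and none was uninjected. The mice are called animals A to D, and each gave 1 array per group. The U6 promoter is active in most cell types, and the RNA was that of whole muscle pieces. In such bulk samples, fewer cells of a type and less RNA per cell cannot be told apart.

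Array medians lay between 6.39 and 6.47 in log2 signal, the unit used throughout. Levels of different probe sets were not set against each other, because brightness depends on the probe. *Mytho* itself, listed as D230025D16Rik, had log2 signals from 10.78 to 11.35 in the scrmb arrays, against 8.08 to 8.20 in the MYTHO arrays of animals A, B and D and 8.80 in that of animal C. The groups did not overlap, and the MYTHO signal was 14.2% of the scrmb signal (limma, log2 difference -2.81, SE 0.21, adjusted p = 0.00044). With the animal as a block in limma, the adjusted p was 0.0156. An exact two-sided permutation test that ignored the pairing of legs gave p = 0.0286, the smallest that 4 against 4 unpaired arrays allow. In limma without a block, 6 probe sets passed an adjusted p of 0.05, *Mytho* included. The mean of 7 myofibre markers lay at 18.99 to 19.17 in every array, close to the ceiling of 19.93 that 1 of them reached on 1 array, and a further 3 were saturated on all arrays.

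The first question was whether the myotubularins, the phosphatases that act on PI3P, differed between the legs. *Mtm1* (GRCm38.p6 chromosome X, 71210767 to 71315413) codes for myotubularin, whose loss causes the X-linked form of the disease. Its log2 signals were 5.75, 6.59, 6.02 and 6.18 in the scrmb muscles of A, B, C and D respectively, an order kept throughout. In the MYTHO muscles they were 5.88, 6.40, 6.41 and 6.57. The MYTHO leg was the higher one in all animals but B, and the groups overlapped along most of their range. Means were 6.14 ± 0.35 and 6.32 ± 0.30 (SD, n = 4 each), a difference of 0.18 (SE 0.22, 95% confidence interval -0.31 to 0.67, adjusted p = 0.798). Leaving out 1 array or 1 animal at a time gave 0.052, without the scrmb array of A, to 0.33, without that of B. *Mtm1* was the one gene of the 10 with a mean signal outside the upper 50% of probe sets.

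*Mtmr2* (chromosome 9, 13747260 to 13808896), a close relative of *Mtm1* best known for a demyelinating neuropathy, showed the largest difference of the 10 in this fit. Scrmb muscles of animals A to D gave log2 signals of 10.37, 10.22, 9.70 and 9.90, and MYTHO muscles 10.29, 10.75, 10.46 and 10.43. All 4 MYTHO values lay near or above the top of the scrmb range, but the scrmb muscle of animal A was higher than its own MYTHO leg, so the groups overlapped. The mean was 10.05 ± 0.30 in scrmb and 10.48 ± 0.19 in MYTHO (SD, n = 4 each), which is a 1.35-fold difference. On the log2 scale this was 0.44 (SE 0.20, 95% confidence interval 0.00039 to 0.87), with an unadjusted p of 0.0498 and an adjusted p of 0.403 in limma. The unadjusted p was 0.0595 with the animal as a block (adjusted p = 0.417) and 0.0444 with the animal as a random effect.

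The *Mtmr2* value depended on single arrays. Leaving out the scrmb array of animal C, the lowest of the 8, brought the log2 difference to 0.32 and the unadjusted p to 0.146. Leaving out the scrmb array of D, or the MYTHO array of B, C or D, gave unadjusted p-values of 0.108, 0.130, 0.0735 and 0.0701. Without both arrays of animal B, C or D they were 0.116, 0.178 and 0.135, whereas without both arrays of animal A the difference was 0.61 with an unadjusted p of 0.0231. The MYTHO mean was the higher under each of these settings. The scrmb muscle of C also carried the most Schwann cell transcript, with a marker mean of 7.98 against 6.35 to 7.24 in the other 7 arrays. The part of nerve content in the *Mtmr2* values was not tested.

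*Mtmr14* (chromosome 6, 113237635 to 113281392), also called Jumpy, codes for a phosphatase of the same lipid that restrains autophagy. Its scrmb signals were 7.99, 8.88, 8.75 and 8.94 in animals A to D, and its MYTHO signals 7.94, 8.63, 8.13 and 8.40. The MYTHO leg was the lower in each of the 4 animals, by 0.05, 0.25, 0.62 and 0.54. The groups overlapped nevertheless, since animal A was low in both legs. With means of 8.64 ± 0.44 and 8.28 ± 0.30 (SD, n = 4 each), the difference was -0.36 (SE 0.24, 95% confidence interval -0.90 to 0.17, adjusted p = 0.586), and the animal block gave an adjusted p of 0.459. Without the scrmb array of animal A the difference was -0.58 and its unadjusted p 0.0191, with an adjusted p of 0.342.

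Next, the membrane-bending genes were compared. *Bin1* on chromosome 18 codes for amphiphysin 2, which tubulates membranes and builds T-tubules. Its scrmb signals in animals A to D were 15.53, 16.17, 16.10 and 16.13, and its MYTHO signals 15.78, 15.64, 15.36 and 16. Those of animals B, C and D in the scrmb group lay above every MYTHO muscle, and that of animal A lay below all MYTHO muscles but that of C. The mean went from 15.98 ± 0.30 to 15.70 ± 0.27 (SD, n = 4 each), a difference of -0.29 (SE 0.21, 95% confidence interval -0.75 to 0.17, adjusted p = 0.629). Without the scrmb array of animal A it was -0.44, with an unadjusted p of 0.0529, and without both arrays of animal C it was -0.14.

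*Dnm2* (chromosome 9, 21424908 to 21507759) codes for dynamin 2, the GTPase that cuts membrane necks and that binds amphiphysin 2. Scrmb signals were 12.64, 12.37, 12.12 and 12.58, and MYTHO signals 12.51, 12.16, 12.54 and 12.38, in animals A to D. Both groups covered nearly the same span, with animals A, B and D lower in the MYTHO leg and C higher. The difference of -0.03 (SE 0.18, 95% confidence interval -0.43 to 0.37, adjusted p = 0.971) had no stable sign, being 0.02 after quantile normalization and 0.01 after median centring.

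*Speg* (chromosome 1, 75375297 to 75432320) codes for a kinase of the triad that binds myotubularin. Signals were 9.69, 9.73, 9.23 and 10.31 in scrmb, and 9.55, 10.21, 9.48 and 10.23 in MYTHO. Animal D was high and C low in both legs, and the groups overlapped. Animal means ran from 9.36 in C to 10.27 in D, a range of 0.915, beside a group difference of 0.13 (SE 0.26, 95% confidence interval -0.45 to 0.70, adjusted p = 0.889).

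*Cav3* (chromosome 6, 112459505 to 112472872), the muscle form of caveolin, coats the small pits of the sarcolemma and the growing T-tubule, and keeps dysferlin at the surface. In animals A to D its scrmb signals were 9.07, 8.34, 8.60 and 9.28, and its MYTHO signals 8.91, 9.03, 8.33 and 9.47. As with *Speg*, animal D was highest in both legs. The MYTHO leg was above the scrmb leg in B and D and below it in A and C. The animal means spanned 0.91, and the group difference was 0.11 (SE 0.27, 95% confidence interval -0.48 to 0.71, adjusted p = 0.907).

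**Figure D1:**
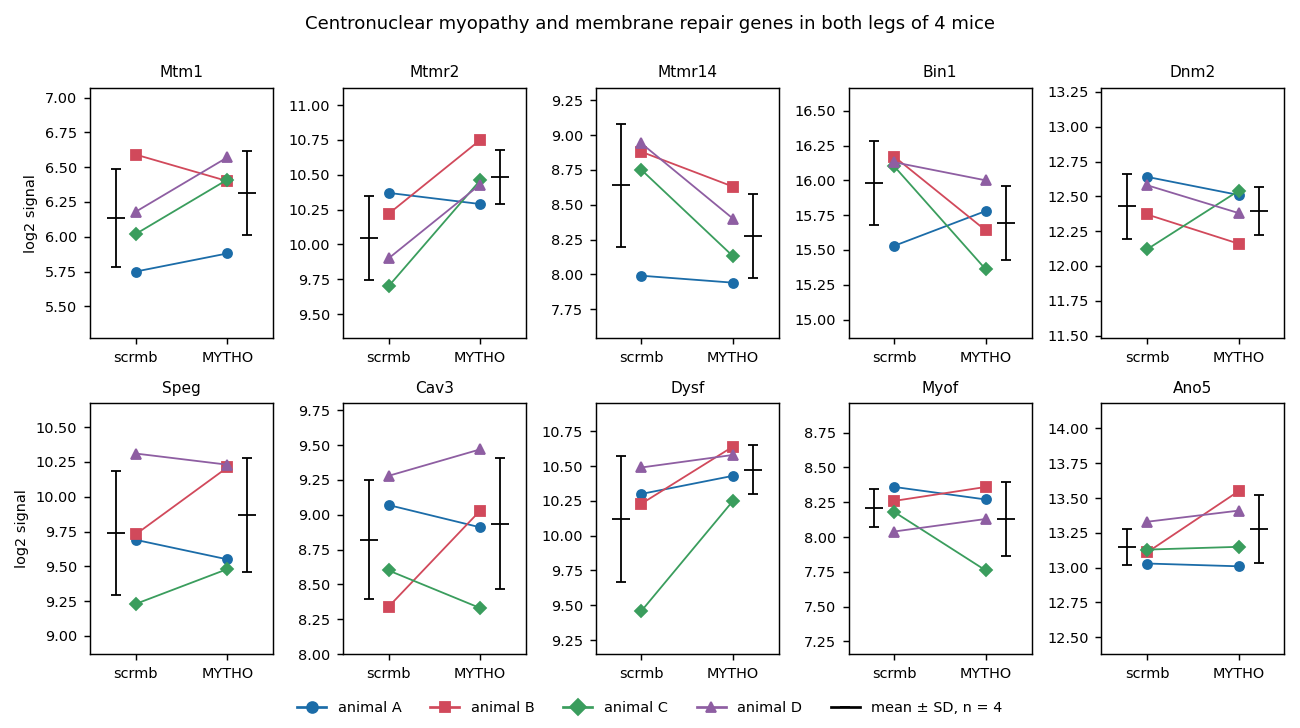
Log2 signal of the 10 genes (vertical axes, each 1.8 log2 units high) in the scrmb and MYTHO GAS muscle of animals A to D. Lines join the legs of 1 animal and black bars are the group mean ± SD (n = 4). In all 10 panels the groups overlap, *Mtmr14* slopes down and *Dysf* up in all 4 animals, and the scrmb muscle of animal C is the lowest of the 8 for *Mtmr2*, *Dnm2*, *Speg* and *Dysf*.

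The third question concerned the repair genes themselves. *Dysf* (chromosome 6, 84008361 to 84211060) codes for dysferlin, the calcium sensor that brings vesicles to a tear. Its scrmb signals were 10.30, 10.23, 9.46 and 10.49, and its MYTHO signals 10.43, 10.64, 10.25 and 10.58. Each MYTHO leg was above its own scrmb leg, by 0.13, 0.41, 0.79 and 0.09, and the low scrmb muscle of C gave the widest gap. Group means of 10.12 ± 0.45 and 10.48 ± 0.17 (SD, n = 4 each) differed by 0.35 (SE 0.23, 95% confidence interval -0.15 to 0.86, adjusted p = 0.574), or 1.28-fold. With the animal as a block the adjusted p was 0.490. Leaving out both arrays of 1 animal or 1 array at a time kept the difference between 0.14 and 0.48.

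*Myof* (chromosome 19, 37899036 to 38043577) codes for myoferlin, a relative of dysferlin that acts in myoblast fusion and is also made by endothelial cells. Scrmb signals were 8.36, 8.26, 8.18 and 8.04 in A to D, and MYTHO signals 8.27, 8.36, 7.76 and 8.13. The MYTHO muscle of C was the lowest and the other 7 lay close together. The difference was -0.08 (SE 0.19, 95% confidence interval -0.49 to 0.33, adjusted p = 0.902).

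*Ano5* (chromosome 7, 51510007 to 51598707) codes for anoctamin 5, a membrane protein of the scramblase and channel family that helps annexins gather at a lesion. Scrmb muscles had 13.03, 13.11, 13.13 and 13.33, and MYTHO muscles 13.01, 13.55, 13.15 and 13.41. Animal B alone differed by more than 0.1 between its legs, being 0.44 higher on the MYTHO side. The means of 13.15 ± 0.13 and 13.28 ± 0.24 (SD, n = 4 each) differed by 0.13 (SE 0.18, 95% confidence interval -0.27 to 0.53, adjusted p = 0.822). The difference was 0.04 without the MYTHO array of animal B, and 0.027 to 0.22 over all arrays or animals left out.

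Counted together, 0 of the 10 genes passed an adjusted p of 0.05 in limma, which 0.027% of all probe sets did. At an unadjusted p under 0.05, 1 of 10 was higher in the MYTHO group (*Mtmr2*) against a background of 4.81%, and 0 were lower against 7.58%. The study's own threshold, which asks for a 2-fold change and an unadjusted p below 0.05, was met by 0 of 10 against 1.51%. Complete separation of the groups was seen in 0 of 10 upward, with a background of 2.59%, and in 0 of 10 downward, with a background of 3.87%. A MYTHO leg higher in 4 of 4 animals was found for 1 gene (*Dysf*; 8.94% of all probe sets) and lower in 4 of 4 animals for 1 gene (*Mtmr14*; 10.8%). With 10 genes, each of these counts is 0 or 1 and stands near what the array as a whole gave.

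The median log2 difference of the 10 genes was 0.12, with 6 above and 4 below 0, beside a median of -0.005 over all probe sets. The precision was set by 4 animals. Standard deviations within a group ran from 0.13 to 0.47, and the 95% confidence intervals reached from -0.90 at the lowest bound to 0.87 at the highest, all 10 inside a 2-fold difference in either direction. With the animal as a block, the outer bounds were -0.79 and 0.89. The intervals were 0.792 to 1.19 log2 units wide from end to end, and 9 of the 10 included 0. In 9 of the 10 genes, *Mtmr2* being the exception, the mean of both legs differed more between the highest and the lowest animal than between the groups. Such a range over animals, also given for *Speg* and *Cav3*, tends to exceed the group difference even without any animal effect. The count therefore measures no animal effect.

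**Figure D2:**
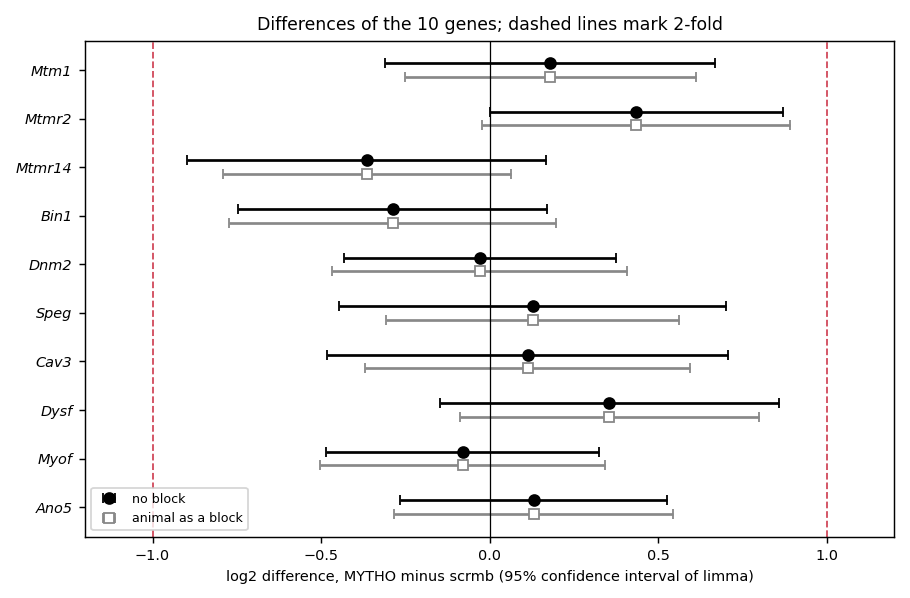
Log2 difference, MYTHO minus scrmb (horizontal axis), of the 10 genes with 95% confidence intervals from limma, without a block (black circles) and with the animal as a block (open squares); dashed lines mark 2-fold. Every interval ends inside the dashed lines, and the black interval of *Mtmr2* alone starts above 0, at 0.00039.

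Around each gene, its family was then examined, with the 10 genes themselves set aside. Of 103 probe sets for 104 such genes, 0 passed the adjusted test (smallest adjusted p = 0.199). An unadjusted p under 0.05 was reached by 12 higher and 2 lower in the MYTHO group. Counted apart from p, 8 were higher and 1 lower with no overlap between the groups, beside the backgrounds of 4.81% and 7.58% and of 2.59% and 3.87% of all probe sets. Their median log2 difference was 0.11. The count of 14 fell to 8 without the scrmb array of animal B or of animal C, to 9 without the MYTHO array of A, and to 5 or 6 without both arrays of B or of C. No member of these families can thus be called changed, and the values that follow describe the genes fixed by name and those with the smallest p.

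The myotubularin family had 11 further members, with a median difference of 0.06 and a range from -0.21 to 0.695. *Mtmr12*, the inactive partner that stabilises myotubularin, differed by 0.02 and *Mtmr1*, its nearest relative, by -0.21 (adjusted p = 0.984 and 0.745). *Sbf1*, an inactive myotubularin that pairs with MTMR2, had scrmb signals of 8.52, 8.19, 7.58 and 8.51 in animals A to D and MYTHO signals of 8.90, 9.13, 8.83 and 8.72. All MYTHO muscles lay above all scrmb muscles, with animal C, lowest in the scrmb group, giving the widest gap. The *Sbf1* difference was 0.695 (SE 0.23, adjusted p = 0.249; animal block, adjusted p = 0.262).

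Enzymes that make or process PI3P numbered 9 and had a median of 0.01. *Pik3c3*, the kinase that makes PI3P for autophagy, differed by 0.01 (adjusted p = 0.990), and *Pikfyve*, which converts PI3P to PI(3,5)P2, by -0.04 (adjusted p = 0.972; 0.0025 after median centring). *Becn1*, the beclin subunit of the kinase complex, had scrmb signals of 7.41, 7.05, 6.87 and 7.58 and MYTHO signals of 7.68, 7.60, 7.78 and 7.73. The MYTHO muscles formed a tight cluster just above the highest scrmb muscle. The *Becn1* difference of 0.47 (SE 0.19) had an adjusted p of 0.354, and the unadjusted p exceeded 0.05 when the scrmb array of B or C, the MYTHO array of A, C or D, or both arrays of B or of C were left out.

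Dynamins and proteins with the banana-shaped BAR domain numbered 14 besides *Bin1* and *Dnm2*, with a median of 0.16. *Pacsin2*, which shapes caveolae, had scrmb signals of 9.32, 8.91, 9.02 and 9.36 and MYTHO signals of 9.50, 9.89, 9.86 and 9.64. The groups did not overlap, and the gap was wide in animals B and C and narrow in A and D. *Pacsin2* differed by 0.57 (SE 0.18, adjusted p = 0.243). Its relative *Pacsin3*, named here after its values were seen, differed by -0.39 (adjusted p = 0.628) and was lower in 3 of 4 animals. The dim probe set of *Dnm1*, the neuronal dynamin, went from 4.74, 4.77, 4.38 and 4.61 to 4.93, 5.10, 5.31 and 5.29, without overlap (difference 0.53, SE 0.18, adjusted p = 0.256). *Dnm3* differed by -0.03 (adjusted p = 0.971), or 0.01 after median centring. *Dnm1l*, the dynamin that divides mitochondria, differed by -0.40 (adjusted p = 0.435).

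**Figure D3:**
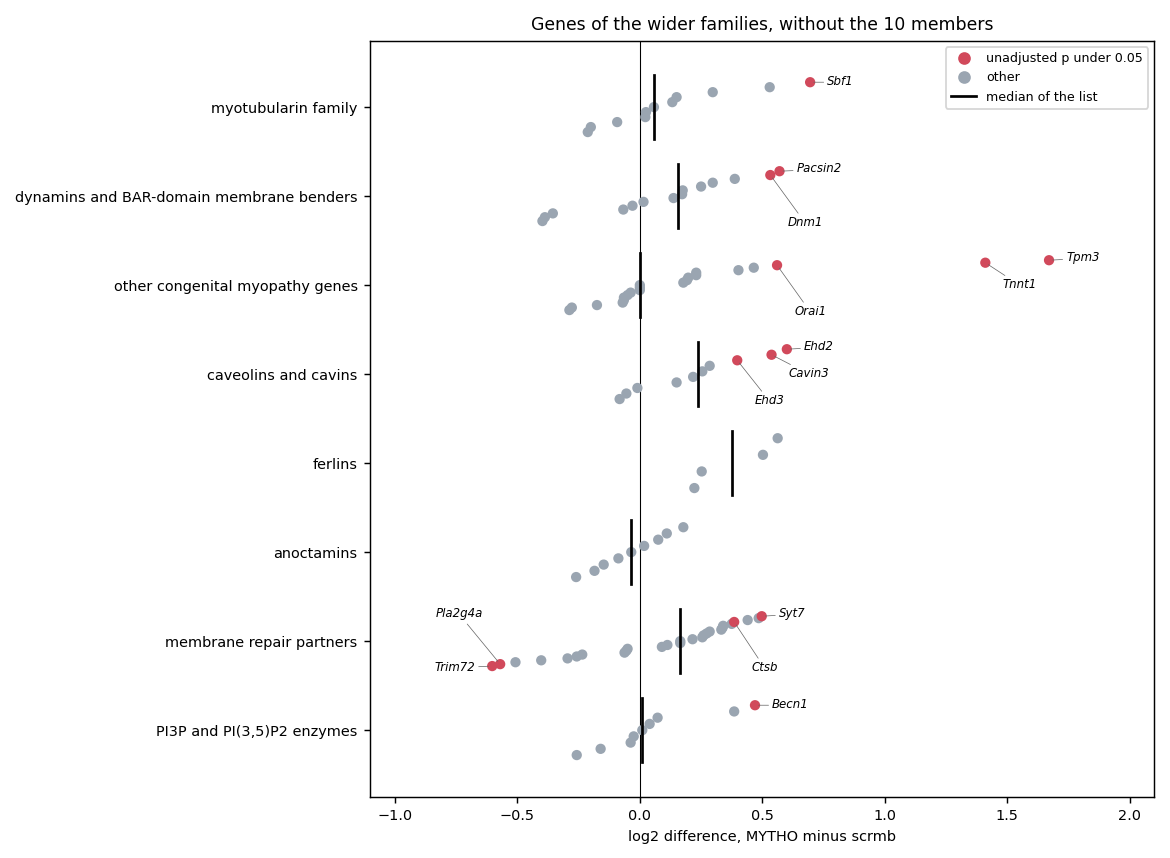
Log2 difference, MYTHO minus scrmb (horizontal axis), of each gene of the wider families without the 10 genes; red points have an unadjusted p under 0.05, grey points do not, and black bars are the list medians. The red points number 14, 12 of them to the right of 0, the outermost being *Tpm3* and *Tnnt1*, and none passed the adjusted test.

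Caveolae were the family nearest to *Cav3*. Its 10 further genes had a median difference of 0.24, and 3 reached an unadjusted p under 0.05, all higher in the MYTHO group: *Ehd2*, *Cavin3* and *Ehd3*. *Cavin3*, listed as Prkcdbp, a coat protein of caveolae, had scrmb signals of 7.60, 7.55, 7.78 and 8.0 in A to D and MYTHO signals of 8.54, 8.40, 8.01 and 8.13. Its groups were separate by a narrow margin, between the scrmb muscle of D and the MYTHO muscle of C. The *Cavin3* difference was 0.54 (SE 0.19, adjusted p = 0.283), and its unadjusted p, 0.0153 with all arrays, was 0.0509 without the MYTHO array of animal A and 0.102 without both arrays of that animal.

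*Ehd2*, an ATPase at the neck of caveolae, had signals of 11.67, 11.59, 11.19 and 11.89 in scrmb and of 12.40, 12.17, 12.35 and 11.82 in MYTHO. Animals A, B and C were higher in the MYTHO leg and D was slightly lower there, so the groups overlapped (difference 0.60, SE 0.21, adjusted p = 0.270). *Ehd3*, a relative that acts in endosome recycling, differed by 0.40 (SE 0.18, adjusted p = 0.388) without overlap. Its unadjusted p was 0.0437, but 0.0543 with the animal as a block, and it was under 0.05 in 10 of 21 alternatives. *Cavin4*, the cavin of muscle fibres, listed as Murc, differed by -0.01 (adjusted p = 0.992), or 0.02 after quantile normalization and 0.03 after median centring. *Cav1*, the caveolin of endothelium and fat, differed by 0.15 (adjusted p = 0.776). *Cavin1*, listed as Ptrf, which every caveola needs, differed by 0.26 (adjusted p = 0.689), with a range from 0.037 without both arrays of animal A to 0.51 without both arrays of D. Whether these genes differ from one another was not tested.

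Endothelial cells are rich in caveolae, and their markers stood higher in the MYTHO muscles. The mean of 8 endothelial markers was 9.07 to 9.37 in the scrmb arrays and 9.58 to 9.73 in the MYTHO arrays, with no overlap and a difference of 0.40. All 8 had a difference above 0, beside 49% of all probe sets. An unadjusted p under 0.05 was reached by 2, beside 4.81% of all probe sets in that direction, and an adjusted p of 0.05 by none. All 8 smooth muscle and pericyte markers and all 8 slow fibre markers also had a difference above 0. The part of endothelial content in the caveolar genes and in *Myof* was not tested.

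The ferlins other than *Dysf* and *Myof* numbered 4, with differences from 0.22 to 0.56 and a median of 0.38, but none reached an unadjusted p of 0.05 without a block. Their mean signals ran from 3.69 (*Fer1l5*) to 6.41, within or below the span of the array medians, 6.39 to 6.47. *Fer1l4*, named here after its values were seen, had an unadjusted p of 0.0526, and 0.0475 with the animal as a block (adjusted p = 0.390). *Fer1l5*, which takes part in myoblast fusion, differed by 0.25 (adjusted p = 0.590). Among 9 further anoctamins the median was -0.04, with 0 of 9 at an unadjusted p under 0.05. *Ano6*, a phospholipid scramblase, differed by -0.15 and *Ano10* by 0.18 (adjusted p = 0.776 and 0.745).

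Partners in membrane repair gave the smallest p of all these families. *Trim72* (chromosome 7, 128003462 to 128011393) codes for MG53, the muscle ubiquitin ligase that gathers vesicles at a tear and binds dysferlin and caveolin 3. Its scrmb signals were 10.99, 10.57, 10.64 and 10.87 in animals A to D, and its MYTHO signals 10.23, 10.28, 10.10 and 10.05. All 4 MYTHO muscles lay below all 4 scrmb muscles, with a margin of 0.29 between the nearest pair, both from animal B. The difference was -0.60 (SE 0.17, 95% confidence interval -0.98 to -0.23), with an unadjusted p of 0.00447 and an adjusted p of 0.199 in limma, and 0.25 with the animal as a block. Under the 22 alternatives it ran from -0.71 to -0.53, with an unadjusted p under 0.05 in all 22 and adjusted p-values from 0.113 to 0.548.

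*Syt7*, a calcium sensor of lysosome fusion at tears, had scrmb signals of 5.40, 5.03, 4.94 and 5.21 and MYTHO signals of 5.59, 5.63, 5.80 and 5.55. The groups did not overlap, and the dim probe set differed by 0.50 (SE 0.17, adjusted p = 0.274). *Pla2g4a*, a phospholipase that releases fatty acids from membranes, differed by -0.57 (adjusted p = 0.388), lower in animals A, B and C and higher by 0.53 in D, and its unadjusted p was 0.0441 without and 0.0756 with the animal as a block. The annexins, which bind lipid at the lesion in the presence of calcium, did not share a sign. *Anxa1* differed by -0.30, *Anxa2* by 0.22 and *Anxa6* by 0.33 (adjusted p = 0.644, 0.805 and 0.531). Leaving out arrays or animals took *Anxa1* from -0.50, without the MYTHO array of animal A (unadjusted p = 0.0237), to -0.14, and *Anxa6* from 0.20 to 0.45. *Capn3*, the muscle calpain, was lower in 4 of 4 animals with a difference of -0.26 (adjusted p = 0.609). The *Ahnak* probe set, which also names Mir6367, differed by -0.51 (adjusted p = 0.502).

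**Figure D4:**
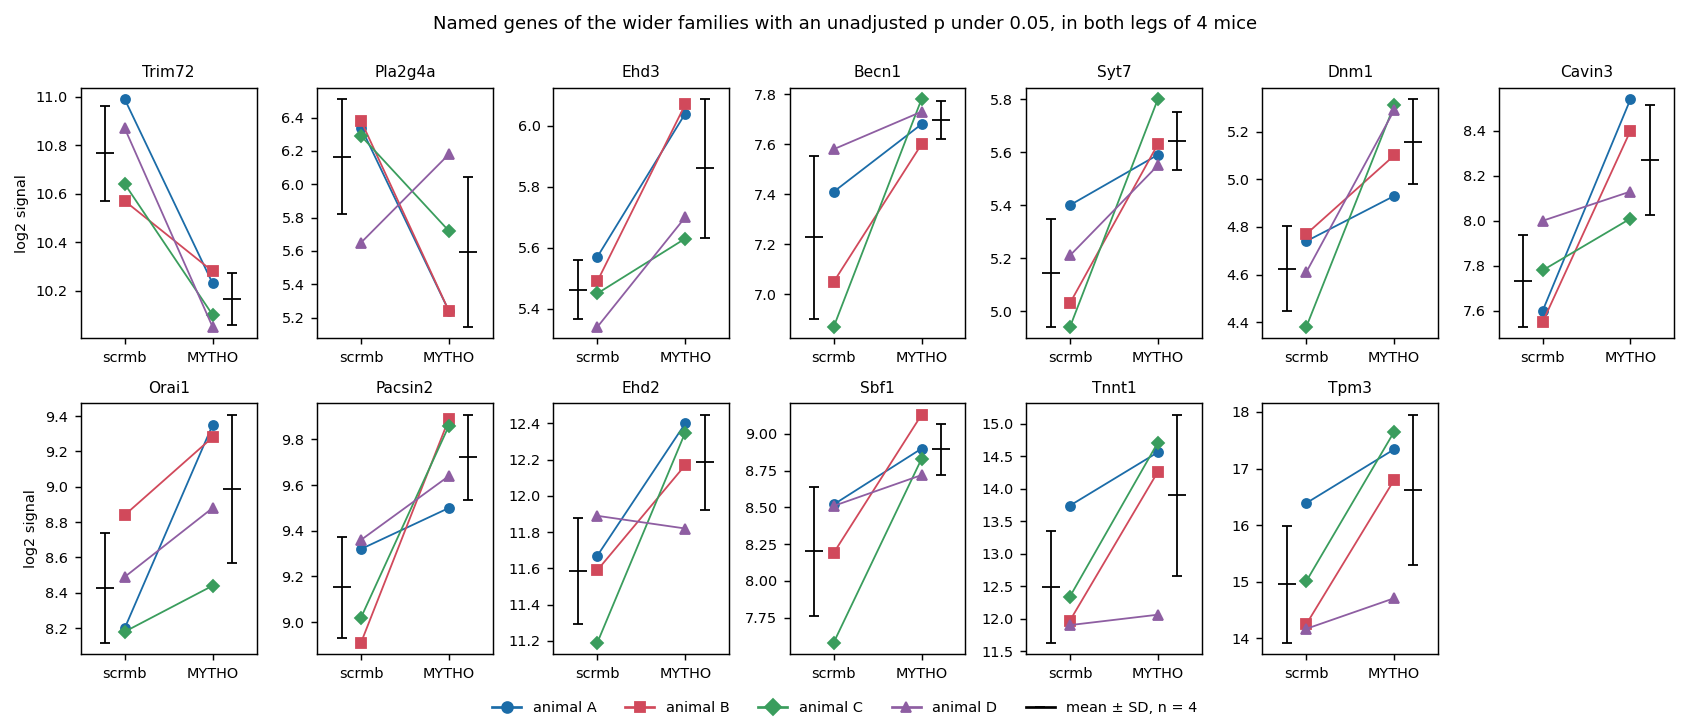
Log2 signal (vertical axes, scaled to each gene) of the 13 named genes of the wider families with an unadjusted p under 0.05, in the scrmb and MYTHO muscles of animals A to D, ordered by their difference from *Trim72* (-0.60) to *Tpm3* (1.67). Lines join the legs of 1 animal and black bars are the group mean ± SD (n = 4); *Trim72* is lower in the MYTHO leg of all 4 animals, and *Tpm3* and *Tnnt1* stay low in both legs of animal D.

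Other genes of congenital myopathy numbered 21 and had a median difference of 0, with 3 at an unadjusted p under 0.05. Those were *Tpm3*, *Tnnt1* and *Orai1*. *Tpm3*, the slow tropomyosin, had signals of 16.39, 14.25, 15.01 and 14.17 in scrmb and 17.34, 16.80, 17.65 and 14.71 in MYTHO (difference 1.67, SE 0.61, adjusted p = 0.302). *Tnnt1*, the slow troponin T, differed by 1.41 (SE 0.56, adjusted p = 0.332). Both were higher in the MYTHO leg of 4 of 4 animals, and with the animal as a block their adjusted p-values were 0.158 and 0.198. Their unadjusted p was under 0.05 in 15 and 13 of 22 alternatives, with differences of 1.33 to 2.31 and 1.09 to 2.02. Both belong to the slow fibre list as well, 7 of whose 8 genes had an unadjusted p under 0.05 without a block. All were higher in the MYTHO group, as were 4.81% of all probe sets at that p, and 0 passed the adjusted test. The remaining gene, *Myl2*, had an unadjusted p of 0.131 in limma without a block and 0.0181 with the animal as a block. List means were 13.70, 11.91, 11.94 and 11.61 in scrmb and 14.88, 14.43, 14.81 and 11.68 in MYTHO. The list mean was higher in the MYTHO leg of 4 of 4 animals, by 1.18, 2.52, 2.87 and 0.08, and animal D was low in both legs.

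*Orai1*, the calcium channel of store refilling, was higher in the MYTHO leg of 4 of 4 animals, by 1.15, 0.44, 0.26 and 0.39 (difference 0.56, SE 0.24, adjusted p = 0.370), although the groups overlapped. Its unadjusted p was under 0.05 in 14 of 22 alternatives, and without both arrays of animal A the difference was 0.36 with an unadjusted p of 0.217. *Ryr1*, the calcium release channel of the triad, differed by -0.29 and *Ttn*, titin, by -0.07 (adjusted p = 0.647 and 0.911). For neither does the interval reach 2-fold.

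**Figure D5:**
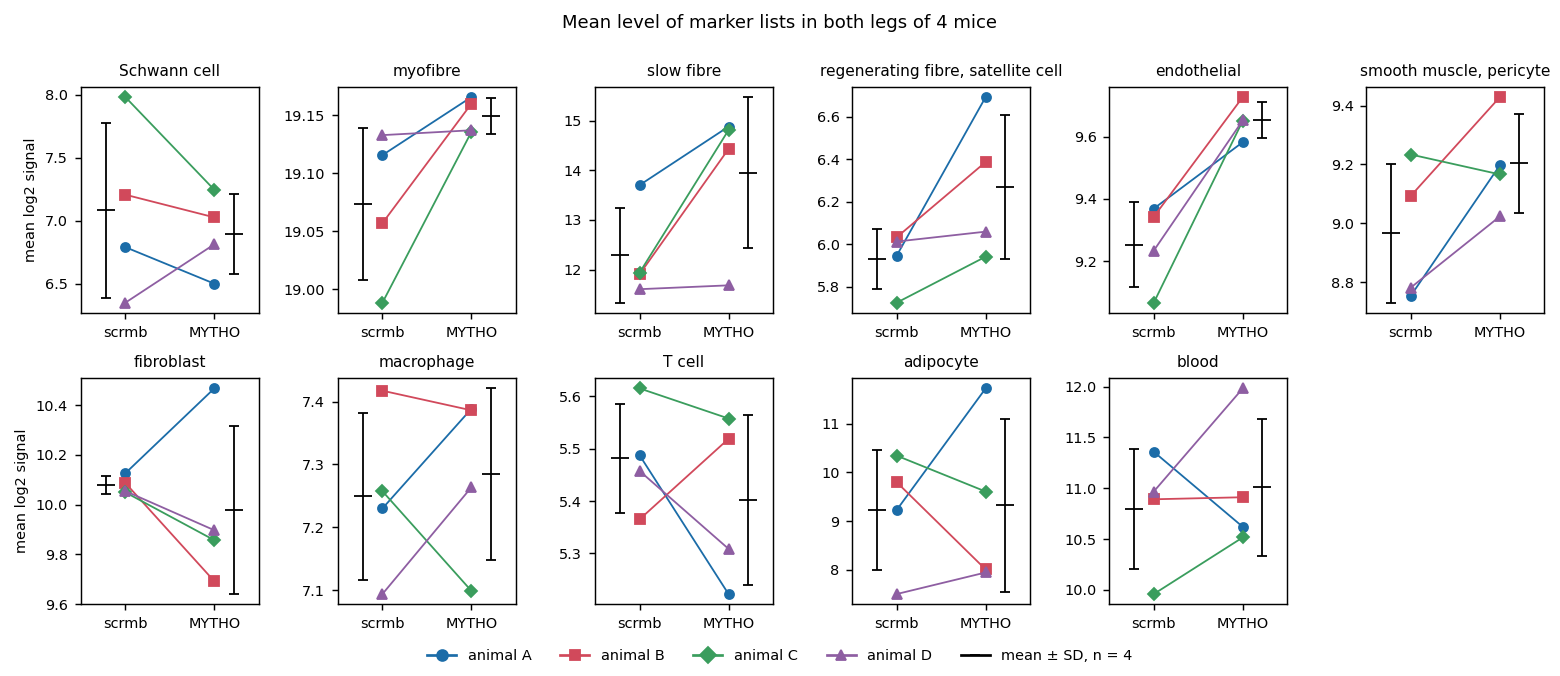
Mean log2 signal (vertical axes, scaled to each panel) of 11 marker lists in the scrmb and MYTHO muscles of animals A to D; lines join the legs of 1 animal and black bars are the group mean ± SD (n = 4). The endothelial and myofibre means do not overlap between the groups (after quantile normalization the myofibre means do). The myofibre means lie within 18.99 to 19.17, and their groups part only between 19.133 in scrmb and 19.136 in MYTHO. Of the myofibre genes 2 had a difference above 0, *Myh1* with 0.70 among them, and 5 had one below 0. The scrmb muscle of animal C has the highest Schwann cell mean at 7.98.

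The other marker lists overlapped between the groups. Means ran from 5.72 to 6.03 in scrmb and 5.94 to 6.69 in MYTHO for regenerating fibres and satellite cells, and from 8.76 to 9.23 and 9.02 to 9.43 for smooth muscle and pericytes. They were 10.05 to 10.13 and 9.69 to 10.47 for fibroblasts, 7.09 to 7.42 and 7.10 to 7.39 for macrophages, and 5.36 to 5.62 and 5.22 to 5.56 for T cells. Adipocyte means spanned 7.50 to 10.34 and 7.95 to 11.72, and blood means 9.96 to 11.36 and 10.52 to 11.98. The mean for regenerating fibres and satellite cells used 9 genes, without *Myh8*, which was saturated on all arrays. That mean was higher in the MYTHO leg of each animal, by 0.75, 0.35, 0.22 and 0.05 in A to D. The part of these lists in the values of the 10 genes was not tested.

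Finally, the probe sets whose profile over the 8 arrays lay nearest to the 2 genes with the largest difference were listed, among 21366 probe sets with a single gene symbol. Nearness was the root mean square distance in log2 after each profile was centred on its own mean. For *Mtmr2*, whose own values spread by 0.310 about their mean, the nearest were *Slc29a2*, a nucleoside transporter, at 0.057, *Arhgef3* at 0.0891, *Pi4ka*, a kinase that makes the lipid PI4P, at 0.0915, *Tmem219* at 0.103 and *Rorb* at 0.104. *Slc29a2* repeated the *Mtmr2* pattern closely, with 7.80, 7.64, 7.25 and 7.47 in scrmb and 7.86, 8.27, 7.92 and 7.91 in MYTHO. For *Mtmr14*, with a spread of 0.375, they were *Ppl* at 0.116, *Syt6* at 0.127, *Slc38a2*, an amino acid transporter, at 0.131, *Gm6408* at 0.133 and *Zfp609* at 0.141. Each of these 5 shared with *Mtmr14* a low scrmb value in animal A. The likeness is a description over 8 arrays of 4 mice, with no test.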

How the data were processed

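The authors extracted total RNA with Trizol, labelled it with biotin and hybridised it to Clariom S Mouse arrays. The deposited log2 signals were computed by the authors in the Transcriptome Analysis Console 4.0.1 with default settings. Per the file headers this was gene-level SST-RMA with annotation release 36 on mm10: background correction, quantile normalization and median polish, which can compress differences of dim and of very bright probe sets. The table held 22206 probe sets, from 2.38 to a ceiling of 19.93, where 18 were saturated on all arrays. 3 had no symbol and 836 named several genes. The deposited group averages, folds, p-values and false discovery rates were not used.

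From the log2 signals, MYTHO and scrmb arrays (4 each) were compared with limma 3.58.1 in R 4.3.3 (lmFit, eBayes, default settings, two-sided, no block), with Benjamini-Hochberg adjustment over all probe sets. The study names an ebayes ANOVA for its arrays and does not state whether the legs were paired in it. Leaving out the block was a choice made here. The code of the fit was run on simulated data with planted differences, which checks the code and not the results given here. Symbols and coordinates are those of RefSeq on GRCm38.p6, the assembly of mm10. All 203 listed genes were matched, 7 of them through gene IDs under older symbols. Where a gene had several probe sets, the brightest was taken. Precision is limited by the number of arrays.

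The 10 genes, the gene lists and the tests were chosen with earlier results of these data known. Named were the 10 genes, the target, 22 fixed relatives, up to 3 genes of each list with the smallest unadjusted p under 0.05, and the 5 nearest profiles of the 2 genes with the largest difference. A few further genes, *Fer1l4*, *Pacsin3*, *Myh1*, *Myh8* and *Myl2*, were named after their values were seen.

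Each column name holds the number of an animal, and every number appears under both groups. Since the scrambled hairpin went into the contralateral GAS, arrays with the same number come from 1 mouse, and a replicate block on the animal was fitted as an alternative. As a check, deviations of an animal's arrays from their group means had correlations over probe sets (not independent of each other) of 0.0027, -0.0014, 0.135 and 0.0871 in A, B, C and D, while the highest correlation with an array of another animal was 0.104, 0.104, 0.0523 and 0.0759. The other alternatives were quantile normalization, median centring, array weights, the upper 75% or 50% of probe sets in signal, a trended and robust eBayes, removal of saturated probe sets, 1 probe set per symbol, a 1.5-fold minimum, an adjusted p of 0.1, and leaving out each array or animal.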

Additional observations from a re-analysis of the deposited data

Results flagged for a closer look

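In 8 of 108 groups of 4 arrays, among them 1 of the 20 groups of the 10 genes, a single array stood apart from the other 3 by a gap that filled most of the group's range. Chance alone sets such an array apart in about 1 of 20 groups. In the scrmb group, *Bin1* in animal A was at 15.53 while the others lay from 16.10 to 16.17. *Ano10* in animal D was at 10.89 (others 10.53 to 10.56), and *Pla2g4a* in animal D at 5.65 (others 6.29 to 6.38). In the MYTHO group, *Ryr1* in animal D was at 16.73 (others 16.35 to 16.40), *Tnnt1* in animal D at 12.06 (others 14.26 to 14.71), and *Mytho* in animal C at 8.80 (others 8.08 to 8.20). The slow fibre marker mean was at 13.70 in the scrmb muscle of animal A, where the others lay from 11.61 to 11.94, and at 11.68 in the MYTHO muscle of animal D, where they lay from 14.43 to 14.88. The cause was not tested for any of them.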

How the results depend on the processing

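Under all 22 alternatives, 0 of the 10 genes passed an adjusted p of 0.05, and with all 8 arrays 0 passed an adjusted p of 0.1 or a 1.5-fold change with an unadjusted p under 0.05. Without both arrays of animal A, the *Mtmr2* difference of 0.61 with an unadjusted p of 0.0231 lay past that relaxed fold. The count of genes among the 10 with an unadjusted p under 0.05, which was 1, became 0 with array weights, without saturated probe sets and with the animal as a fixed replicate block. Leaving out arrays or animals gave 0 to 2, and 2 arose without the scrmb array of animal A. With the replicate block the adjusted p-values of the 10 genes ran from 0.417 to 0.970, and no adjusted call on the 10 genes or their families changed. The 14 genes of the wider families with an unadjusted p under 0.05 became 5 to 17 when arrays or animals were left out, with 5 without animal B and 17 without animal D. The number of marker lists whose groups did not overlap, 2, was 1 after quantile normalization.

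Of 219 recomputed differences of the 10 genes 14 had the opposite sign, as had 36 of 697 of the named relatives, none of them called. After quantile normalization *Dnm2* differed by 0.0197 and *Cavin4* by 0.0192. Median centring gave *Dnm2* and *Dnm3* 0.01 each, *Cavin4* 0.03 and *Pikfyve* 0.0025, and array weights gave *Cavin4* 0.0409. When arrays or animals were left out, the log2 difference ran from -0.18 to 0.049 for *Dnm2*, -0.043 to 0.32 for *Speg*, -0.08 to 0.31 for *Cav3* and -0.16 to 0.043 for *Myof*. Among the relatives it ran from -0.15 to 0.21 for *Mtmr12*, -0.36 to 0.033 for *Mtmr1*, -0.17 to 0.10 for *Dnm3*, -0.13 to 0.043 for *Ttn*, -0.11 to 0.11 for *Cavin4*, -0.17 to 0.42 for *Anxa2*, -0.10 to 0.087 for *Pik3c3* and -0.21 to 0.13 for *Pikfyve*. The cause was not tested. The planned mean over several probe sets of a gene gave no value, because each of the 10 has 1 probe set.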
